A study of Mus musculus with 12 samples.

Results

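The genes described here are Trp53, which encodes p53, its inhibitor Mdm2, and 8 direct p53 targets that act in cell death and cell cycle arrest (Bax, Aen, Ccng1, Trp53inp1, Phlda3, Bbc3, Pmaip1 and Sesn1). They are picked out of the table by gene symbol. Of the 10 genes, 9 are among the 18546 genes of the deposited table, and 8 of these passed the filter for testing (at least 1 RPKM in at least 3 libraries), which 15478 genes passed. RPKM scales a read count by the length of the gene and by the depth of the library. Phlda3 did not pass and is given by its reads, and Pmaip1 is not analysed here.

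Hematopoietic stem cells (HSCs) were sorted from the bone marrow of C57BL/6 mice of 10 to 12 weeks by the SLAM gate: lineage markers and CD48 absent, CD150, Sca1 and cKit present. There were 4 genotypes with 3 libraries each: NrasG12D/+, with 1 copy of an activated Ras GTPase, Tet2+/-, with 1 functional copy of an enzyme that oxidises methylated cytosine, the compound NrasG12D/+;Tet2+/- mutant, and wild type. How and in which cells the Nras allele was switched on is not given in the sources used here. Total RNA was sequenced after depletion of ribosomal and mitochondrial RNA, and reads in genes numbered 19205045 to 36890942 per library.

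NrasG12D/+ replicate 2 had 3268 genes at 0 reads and wild-type replicate 1, also the lowest in depth, had 3824, the most of the 12 libraries, against 1000 in the library with the fewest. Each genotype held libraries with and without Xist, the transcript of the inactive X chromosome, with 2 of 3 libraries above 1 RPKM in NrasG12D/+, compound and wild-type cells and 1 of 3 in Tet2+/- cells. The labels do not state whether the 3 libraries of a genotype came from separate mice or pools, so p-values measure the spread between these libraries. Of the genes of the gate, Kit stood at 64.7 to 86.0 RPKM, Slamf1 (CD150) at 3.17 to 11.3 RPKM and Ly6a (Sca1) at 2.21 to 8.32 RPKM per library, while Cd48 had 0 reads in 9 libraries and at most 1.28 RPKM. In the longer list of 13 gate and identity genes, Cd34 stood at 17.7 to 25.6 RPKM and Flt3 at 4.65 to 13.4. Summed levels of other marker lists were 0.0271 to 8.63 RPKM for mature granulocytes (5 of 9 listed genes measured), 76.9 to 110.0 RPKM for monocytes and macrophages (3 of 7, with Lyz2 alone at 75.2 to 109.0 RPKM), 27.7 to 62.4 RPKM for megakaryocytes and platelets (7 of 7) and 4.5 to 25.3 RPKM for erythroid cells (7 of 8). They were 3.07 to 7.91 RPKM for the B lineage (3 of 8) and 1.04 to 11.1 RPKM for T and NK cells (4 of 8). In bulk RNA of this kind, a lower level in fewer cells and less RNA per cell cannot be told apart.

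p53 is a transcription factor held at low protein level by Mdm2, a ubiquitin ligase that marks it for degradation and is itself a p53 target, which closes a feedback loop. DNA damage, oncogene activity and ribosome stress release p53, mostly through changes in the protein and not in its mRNA, and p53 then activates genes for arrest, repair and apoptosis. In hematopoietic stem cells p53 is known for keeping cells quiescent and for removing damaged ones, and levels of its target mRNAs are commonly read as its activity.

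p53 binds pairs of a 10-letter element, the p53 decamer, and a full site of 20 letters holds a pair without a spacer. RefSeq promoter windows (GRCm38.p6, which is mm10), 250 bases before to 50 after each start, were found for 8 of the 9 measured members, all but Trp53inp1, as 12 windows. On either strand, an exact match to the p53 decamer consensus stood in 7 of these windows, from 6 genes (Trp53, Mdm2, Bax, Aen, Ccng1 and Sesn1), against 8.36% of all 32851 promoter windows. The Aen windows overlap and hold the same match. The members were chosen as p53 and its known targets, so setting their share beside that of all windows is not a test, and what lies behind the difference was not tested. The stretches below show 5 of the exact matches with 20 bases on each side, and the window of Ccng1 and that of Bbc3 around their best full site, since p53 acts on its targets through such elements and Bbc3 had the largest difference between genotypes among the tested members. Capitals mark the matched decamer, or for Ccng1 and Bbc3 the 20 letters of the full site.
Trp53: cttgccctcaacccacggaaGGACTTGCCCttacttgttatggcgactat
Mdm2: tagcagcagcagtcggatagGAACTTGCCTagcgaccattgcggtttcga
Bax: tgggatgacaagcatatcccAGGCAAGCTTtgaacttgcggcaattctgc
Aen: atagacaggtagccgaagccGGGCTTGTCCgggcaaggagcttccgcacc
Sesn1: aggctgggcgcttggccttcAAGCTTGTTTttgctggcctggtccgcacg
Ccng1: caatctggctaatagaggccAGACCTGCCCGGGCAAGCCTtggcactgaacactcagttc
Bbc3: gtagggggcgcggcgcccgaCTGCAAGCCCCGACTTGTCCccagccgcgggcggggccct

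The Trp53 stretch is chr11:69580264-69580313 on the plus strand and the Mdm2 stretch chr10:117710915-117710964 on the minus strand. The Bax stretch is chr7:45467070-45467119 on the minus strand, the Aen stretch chr7:78895917-78895966 on the plus strand, and the Sesn1 stretch chr10:41887246-41887295 on the plus strand. The Ccng1 site (stretch chr11:40755442-40755501, minus strand) ran from position -195 to -176 relative to the start and differed from the full consensus at 1 of 20 letters, and 0.0883% of all windows held a site that close. The Bbc3 site (stretch chr7:16309466-16309525, plus strand) ran from position -97 to -78 relative to a start and differed at 3 letters, and 6.29% of all windows held a site within 3. In the windows of the other stretches, the best full site also differed at 3 letters for Trp53, Bax, Aen and Sesn1. For Mdm2 it differed at 5. No exact decamer was found in the Bbc3 and Phlda3 windows, which says only that these letters are not there. A match is a description of sequence and does not show binding.

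Trp53 RNA was flat across the genotypes. Trp53 (chr11:69580359-69591873, plus strand) stood at 9.27, 7.09 and 8.98 RPKM in the NrasG12D/+ libraries 1, 2 and 3, at 9.69, 8.92 and 8.47 RPKM in Tet2+/- libraries, at 9.29, 8.0 and 10.3 RPKM in compound libraries, and at 7.9, 8.48 and 9.87 RPKM in wild-type libraries. All 4 genotypes overlapped, with the lowest library and the highest both from mutants. The means were 8.45 ± 1.19 RPKM in NrasG12D/+, 9.03 ± 0.617 in Tet2+/-, 9.19 ± 1.14 in compound and 8.75 ± 1.01 in wild-type cells (SD, n = 3 each). Compound cells were highest and NrasG12D/+ cells lowest, with Tet2+/- above wild type between them, and no neighbours in this order differed beyond their spread. The log2 difference of NrasG12D carriers (6 libraries) from non-carriers was -0.02 with a 95% interval of -0.27 to 0.24, and that of Tet2+/- carriers from non-carriers was 0.09 (-0.17 to 0.34).

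Mdm2, the ubiquitin ligase that holds p53 down (chr10:117688875-117710758, minus strand), was as flat as Trp53. It measured 6.31, 9.18 and 7.82 RPKM in NrasG12D/+ libraries, 8.19, 7.46 and 9.08 RPKM in Tet2+/- libraries, 8.44, 8.3 and 9.17 RPKM in compound libraries, and 7.84, 8.15 and 7.95 RPKM in wild-type libraries. All compound libraries lay above the 3 wild-type libraries, by a margin smaller than the range of the NrasG12D/+ libraries, which held the lowest and the highest value of the 12. Against wild type the log2 difference was -0.06 (-0.41 to 0.30) in NrasG12D/+, 0.04 (-0.31 to 0.39) in Tet2+/- and 0.11 (-0.24 to 0.47) in compound cells. The allele differences were 0.01 (-0.24 to 0.26) for NrasG12D and 0.11 (-0.14 to 0.35) for Tet2+/-. Among all tested genes, 7.24% varied less than Trp53 and 5.89% less than Mdm2 between libraries of a genotype (SD of log2 RPKM 0.169 and 0.159, against a median of 0.488), so these 2 genes carry the narrowest intervals of the members.

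**Figure D1:**
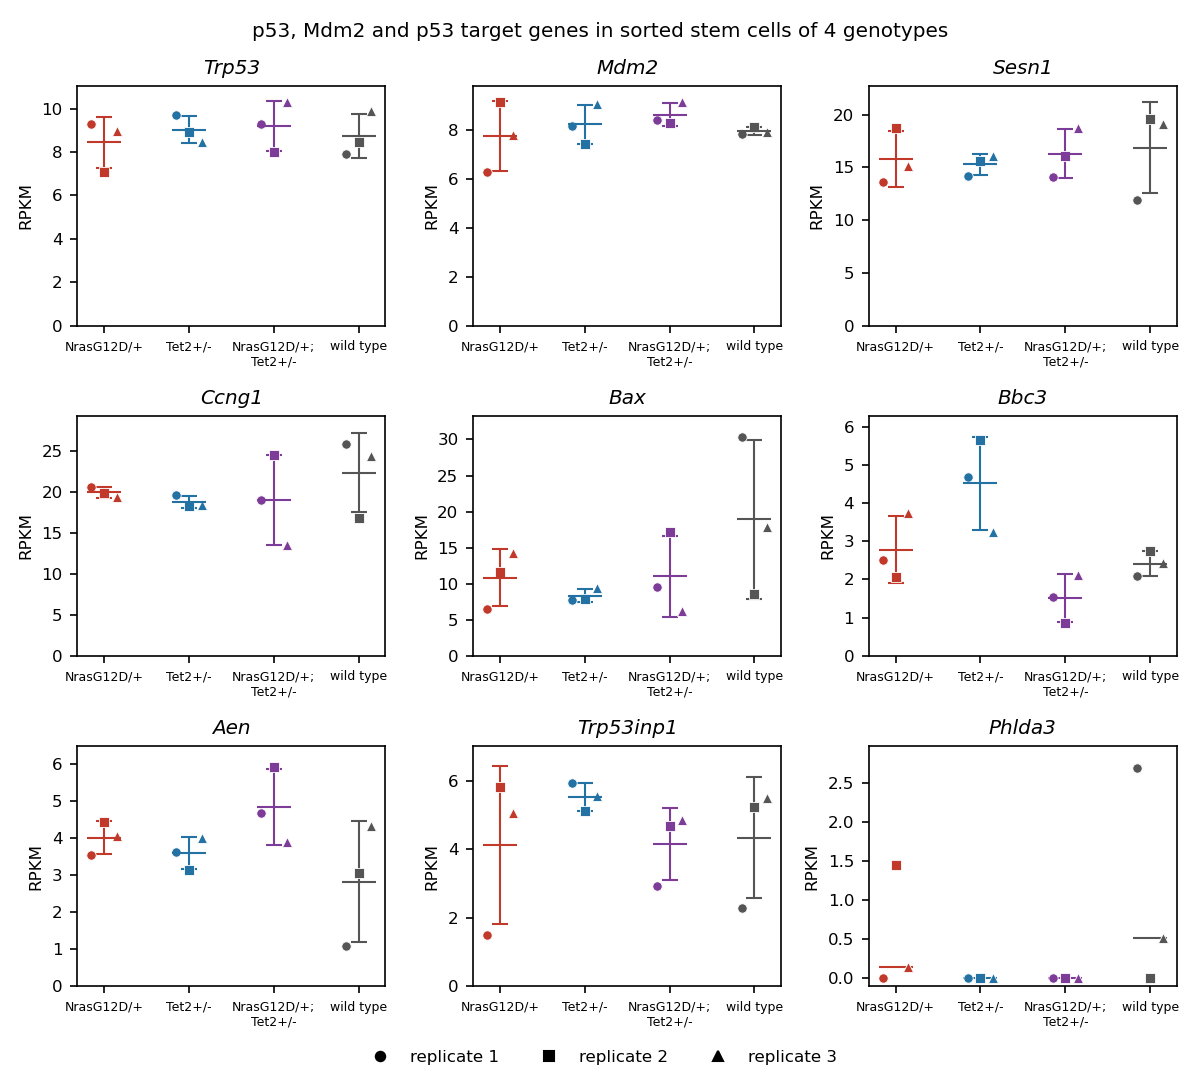
RPKM of the 9 measured members in each library, by genotype (x axis), with horizontal bars and whiskers at the mean and SD of 3 libraries; for Phlda3 the bar is the median and libraries with 0 reads sit at the bottom. Trp53 and Mdm2 stay between 6.31 and 10.3 RPKM throughout, Bbc3 is highest in Tet2+/- and lowest in compound libraries, and the Bax and Aen panels show wild-type replicate 1 apart from the other wild-type libraries.

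Between libraries of a genotype, 46.6% of tested genes varied less than Bbc3, 61.7% less than Bax, 55.7% less than Aen and 62.8% less than Trp53inp1, which places these members of the apoptotic branch near the middle of all genes. Bbc3 encodes Puma, a BH3-only protein that frees Bax and Bak from their inhibitors. Bbc3 (chr7:16308393-16318205, plus strand) stood at 2.51, 2.06 and 3.75 RPKM in NrasG12D/+ libraries, 4.69, 5.64 and 3.23 RPKM in Tet2+/- libraries, 1.55, 0.866 and 2.12 RPKM in compound libraries, and 2.08, 2.74 and 2.42 RPKM in wild-type libraries. The 3 Tet2+/- libraries were all above the wild-type and the compound libraries and the NrasG12D/+ range touched them at its top, while the compound libraries reached into the lower end of the wild-type range. These values rest on 93 to 507 reads per library.

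The compound mutant had a lower Bbc3 level than Tet2+/- cells by a log2 difference of -1.64 ± 0.40 (SE, limma; 95% interval -2.53 to -0.74). Its adjusted p over all tested genes was 0.578, so it did not pass. The difference from NrasG12D/+ cells was -0.92 (-1.82 to -0.03, adjusted p = 1). Without compound replicate 2, the lowest library, these differences were -1.28 and -0.57. The difference from wild type was 0.17 (-0.73 to 1.06) in NrasG12D/+ cells, 0.88 (-0.02 to 1.77) in Tet2+/- cells and -0.76 (-1.65 to 0.14) in compound cells. The interaction, which is the compound difference from wild type less the sum of the 2 single-mutant differences, was -1.80 (-3.07 to -0.54, limma adjusted p = 0.996). These contrasts use the same libraries and are not independent of each other. For the NrasG12D allele over both Tet2 backgrounds the difference was -0.74 (-1.37 to -0.10, adjusted p = 0.602), and for the Tet2 allele it was -0.02 (-0.66 to 0.61). Bbc3 averaged 2.77 ± 0.874 RPKM in NrasG12D/+ and 2.41 ± 0.331 RPKM in wild-type cells, and 1.51 ± 0.627 RPKM in compound and 4.52 ± 1.21 RPKM in Tet2+/- cells (SD, n = 3 each), so the 2 genotype differences averaged for the allele had opposite signs. The summed level of 12 proliferation markers was higher in both genotypes with NrasG12D, with 276 to 301 RPKM in NrasG12D/+ and 271 to 312 RPKM in compound libraries, against 154 to 162 RPKM in Tet2+/- and 130 to 200 RPKM in wild-type libraries. The 7 megakaryocyte and platelet markers summed to 41.1 to 62.4 RPKM in NrasG12D/+ and 43.5 to 51.4 RPKM in compound libraries, against 28.8 to 37.0 RPKM in Tet2+/- and 27.7 to 41.6 RPKM in wild-type libraries. Among the proliferation markers, Mki67 alone stood at 54.9 to 165.0 RPKM over the 12 libraries. The part of either list in the Bbc3 values was not tested.

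Bax, the pore-forming protein of the outer mitochondrial membrane (chr7:45461697-45466898, minus strand), measured 6.52, 11.6 and 14.3 RPKM in NrasG12D/+ libraries, 7.76, 7.92 and 9.34 RPKM in Tet2+/- libraries, 9.59, 17.2 and 6.25 RPKM in compound libraries, and 30.4, 8.5 and 17.8 RPKM in wild-type libraries. Wild-type replicate 1 was the highest library and wild-type replicate 2 lay within the range of every mutant genotype. The log2 difference from wild type was -0.70 (-1.78 to 0.39) in NrasG12D/+, -1.0 (-2.09 to 0.09) in Tet2+/- and -0.72 (-1.81 to 0.37) in compound cells, none of which passed (limma adjusted p = 0.87, 1 and 0.829). Without wild-type replicate 1 these differences were -0.26 in NrasG12D/+, -0.56 in Tet2+/- and -0.28 in compound cells, and the Tet2 allele difference was -0.29 in place of -0.51. Bax overlaps another gene of the annotation, Gm45808, over 915 bases on the same strand, and how reads in that overlap were counted is not given in the sources used here.

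Aen is an exonuclease that degrades nuclear DNA in p53-dependent apoptosis. Aen (chr7:78895854-78911209, plus strand) stood at 3.53, 4.43 and 4.05 RPKM in NrasG12D/+ libraries, 3.63, 3.13 and 3.99 RPKM in Tet2+/- libraries, 4.68, 5.92 and 3.89 RPKM in compound libraries, and 1.07, 3.06 and 4.33 RPKM in wild-type libraries. Every mutant library was above 2 of the 3 wild-type libraries, and wild-type replicate 3 was above 6 of the 9 mutant libraries. The log2 difference from wild type was 0.72 (-0.27 to 1.70) in NrasG12D/+, 0.56 (-0.43 to 1.54) in Tet2+/- and 0.97 (-0.01 to 1.96) in compound cells, and none passed (limma adjusted p = 0.87, 1 and 0.767). Without wild-type replicate 1 the differences were 0.13 in NrasG12D/+, -0.03 in Tet2+/- and 0.39 in compound cells, so that of Tet2+/- cells changed sign.

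Trp53inp1 is a nuclear protein that helps phosphorylate p53 and takes part in autophagy. Trp53inp1 (chr4:11156431-11174379, plus strand) had 1.48, 5.82 and 5.05 RPKM in NrasG12D/+ libraries, 5.94, 5.12 and 5.55 RPKM in Tet2+/- libraries, 2.93, 4.67 and 4.86 RPKM in compound libraries, and 2.29, 5.25 and 5.49 RPKM in wild-type libraries. The low values were those of replicate 1 in the 3 genotypes other than Tet2+/-. The allele differences were -0.32 (-1.14 to 0.49) for NrasG12D and 0.33 (-0.49 to 1.15) for Tet2+/-, and neither passed. Without NrasG12D/+ replicate 1 they were -0.01 and 0.02. The difference from wild type was -0.20 in NrasG12D/+, 0.45 in Tet2+/- and 0.00474 in compound cells, and -0.61, 0.04 and -0.41 without wild-type replicate 1.

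Phlda3, which competes with the kinase Akt for membrane lipids and so restrains it (chr1:135766119-135769136, plus strand), had 0 reads in 8 of the 12 libraries. It had 0, 85 and 10 reads in NrasG12D/+ libraries, 0 reads in each Tet2+/- library, 0 reads in each compound library, and 108, 0 and 35 reads in wild-type libraries. The libraries with reads stood at 1.45 and 0.141 RPKM in NrasG12D/+ and at 2.7 and 0.51 RPKM in wild type. A count of 0 allows up to 3 reads, which is 0.0441 to 0.0708 RPKM in these libraries and covers counting error only, as the labels name no molecular identifiers. All 6 libraries with a Tet2+/- allele were thus at 0, as were 2 of the 6 without it. Each library had 1000 to 3824 genes at 0 reads, and how many of all genes share this pattern was not counted. When all genes were tested without a minimum level, the log2 difference for the Tet2 allele was -4.93 (-9.02 to -0.84). Its limma p was 0.0228 and its adjusted p 0.973. The size of this difference depends on the value that the deposited scale gives to 0 reads.

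Of the members tied to arrest and stress, Ccng1 encodes cyclin G1, which binds the phosphatase PP2A and feeds back on Mdm2. Ccng1 (chr11:40748552-40755311, minus strand) was the most abundant member, with 20.7, 19.9 and 19.4 RPKM in NrasG12D/+ libraries, 19.7, 18.3 and 18.5 RPKM in Tet2+/- libraries, 19.1, 24.5 and 13.5 RPKM in compound libraries, and 25.9, 16.9 and 24.4 RPKM in wild-type libraries. The single mutants lay inside the wild-type range, and 1 compound library lay below it. Between libraries of a genotype, 23.5% of tested genes varied less than Ccng1 and 20.7% less than Sesn1. The allele differences were -0.08 (-0.42 to 0.25) for NrasG12D and -0.17 (-0.51 to 0.17) for Tet2+/-.

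Sesn1 encodes sestrin 1, a stress protein that restrains mTORC1. Sesn1 (chr10:41809935-41908424, plus strand) measured 13.6, 18.7 and 15.1 RPKM in NrasG12D/+ libraries, 14.2, 15.6 and 16.1 RPKM in Tet2+/- libraries, 14.1, 16.1 and 18.7 RPKM in compound libraries, and 11.9, 19.6 and 19.1 RPKM in wild-type libraries. Every mutant library fell between the lowest and the highest wild-type library. The allele differences were 0.01 (-0.32 to 0.33) for NrasG12D and -0.03 (-0.35 to 0.29) for Tet2+/-. Without wild-type replicate 1, the lowest library, the Sesn1 log2 difference from wild type was -0.31 in NrasG12D/+, -0.34 in Tet2+/- and -0.26 in compound cells, against -0.07, -0.11 and -0.02 with it. Sesn1 overlaps 9930024M15Rik of the annotation over 2584 bases on the same strand.

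**Figure D2:**
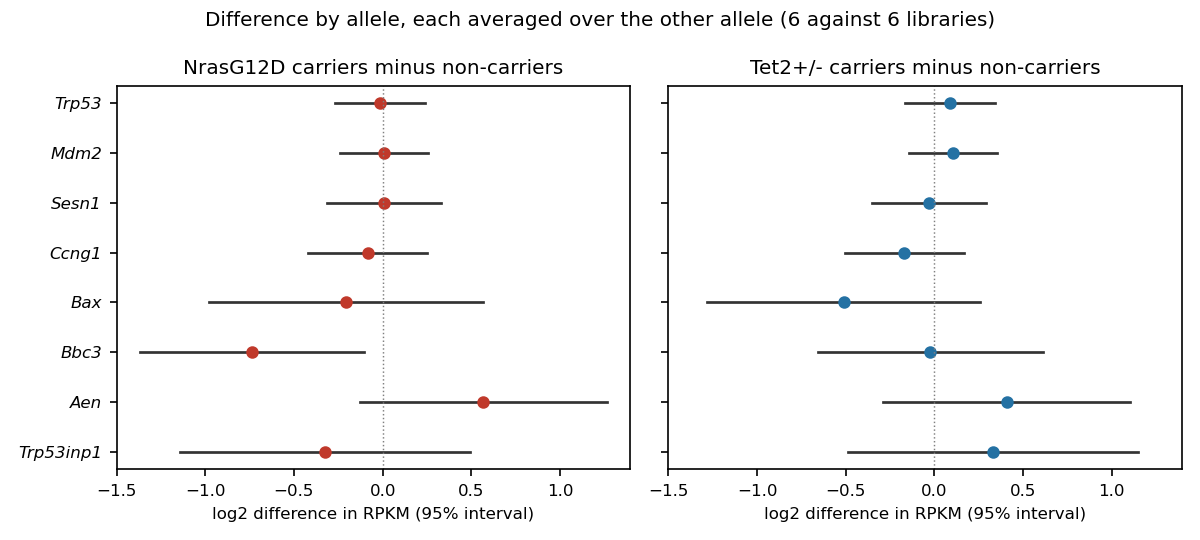
Log2 difference in RPKM of carriers from non-carriers of NrasG12D (left) and Tet2+/- (right) for the 8 tested members (rows), with points at the estimate and lines at the 95% interval from limma, 6 libraries against 6. Trp53, Mdm2, Sesn1 and Ccng1 have narrow intervals around 0, and the interval of Bbc3 for NrasG12D, -1.37 to -0.10, is the one that leaves 0 out before adjustment over genes.

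Across the comparisons, 0 of the 8 tested members passed an adjusted p of 0.05 in limma, and 0 passed with voom on the recovered reads. Few genes of any kind passed: 0.00646% of tested genes for each mutant genotype against wild type and for the compound mutant against Tet2+/-, 0% for the compound mutant against NrasG12D/+, 0.0129% for the interaction, 0.0323% for the NrasG12D allele and 0% for the Tet2 allele. At an unadjusted p under 0.05, Bbc3 was the 1 member past it in the compound mutant against NrasG12D/+ (background 4.04% of tested genes), in the compound mutant against Tet2+/- (5.45%), in the interaction (3.38%) and for the NrasG12D allele (7.24%). None of the 8 tested members, which leave out Phlda3, was past it in NrasG12D/+ against wild type (5.61%), Tet2+/- against wild type (3.35%), the compound mutant against wild type (6.42%) or the Tet2 allele (3.81%). The median log2 difference of the 8 members from wild type was -0.065 in NrasG12D/+, 0.05 in Tet2+/- and -0.01 in compound cells, beside 0.01, 0.04 and 0.02 over all tested genes. Among the 8, 2 were higher and 6 lower in NrasG12D/+, 5 higher and 3 lower in Tet2+/-, and 4 higher and 4 lower in compound cells. Of all tested genes, 51.4% were higher in NrasG12D/+, 54.2% in Tet2+/- and 51.6% in compound cells.

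Per length, the mean levels over 12 libraries ran from Ccng1 (20.1 RPKM) and Sesn1 (16.1) through Bax (12.3), Trp53 (8.85), Mdm2 (8.16), Trp53inp1 (4.54), Aen (3.81) and Bbc3 (2.8) to Phlda3 (0.403). The gene length that the deposited values imply was 0.551 times the annotated exon length for Bax and 2.97 times for Mdm2, the extremes among the members, so this order depends on the lengths the authors used. It was 2.69 times for Trp53, 2.16 times for Aen and 2.02 times for Trp53inp1. Total RNA was sequenced, and whether reads outside exons are part of these values was not tested.

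Few pairs of members varied together past the threshold from library to library, and 12 libraries leave weaker links undecided. Of 28 pairs of the 8 genes, 12 had a positive and 16 a negative Pearson r of log2 RPKM over the 12 libraries, with a median of -0.06. Trp53 and Mdm2 had an r of -0.21 and a rho of -0.10 (permutation p = 0.514 and 0.769). Bax and Ccng1 were the 1 pair past an adjusted p of 0.05, with r = 0.80 (permutation p = 0.00168, adjusted 0.047) and rho = 0.67 (permutation p = 0.0198, adjusted 0.452). Their r was 0.65 without wild-type replicates 1 and 3, the libraries farthest from the Bax median, and 0.78 on the residuals from the genotype means. At an unadjusted p under 0.05 there were 3 pairs, all with a positive r. The others were Trp53inp1 with Sesn1 (r = 0.67, permutation p = 0.0138) and Mdm2 with Trp53inp1 (r = 0.67, permutation p = 0.0264). Without the 2 libraries farthest from the median of the first gene, their r was 0.40 and 0.125. For Bax and Aen r went from -0.40 to 0.71, so some values hang on few libraries. Leaving out 1 library at a time gave between 0 and 2 pairs past the threshold.

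**Figure D3:**
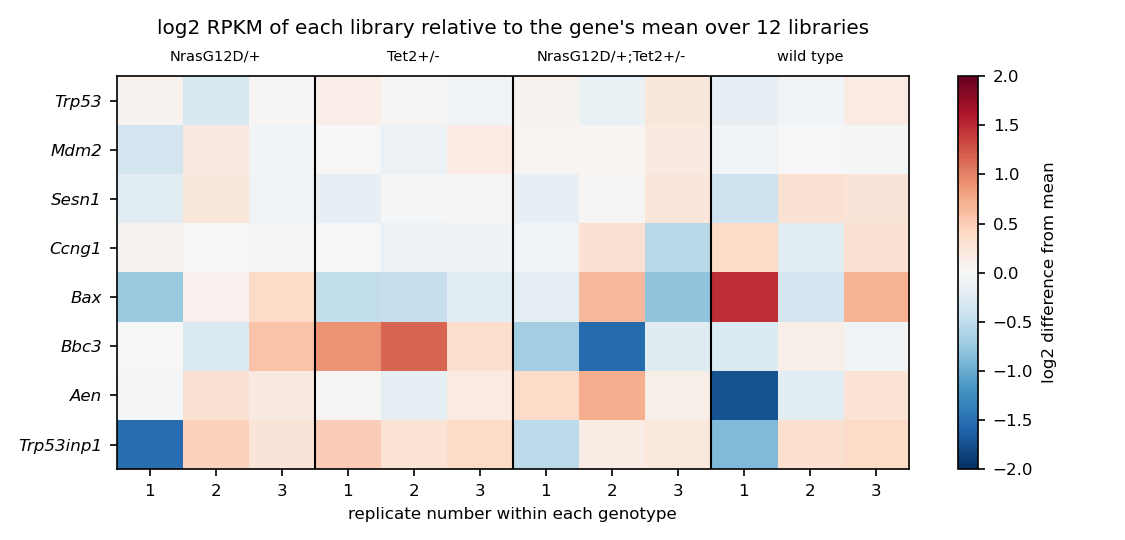
Log2 RPKM of each tested member (rows) in each library (columns, grouped by genotype) relative to the gene's mean over the 12 libraries, red above and blue below. The Bbc3 row is red in the 3 Tet2+/- and blue in the 3 compound libraries, and wild-type replicate 1 is red for Bax and blue for Aen and Trp53inp1.

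The genes whose log2 RPKM was most like that of Trp53 over the 12 libraries were Decr1 (r = 0.88), Ccdc34 (0.87), Cldn34c2 (0.865), Vdac1 (0.86) and RP23-26P10.1 (0.858). For Mdm2 they were Cryzl1 (r = 0.913), Ginm1 (0.896), Jmjd8 (0.888), RP24-372J15.4 (0.882) and Sergef (0.874). These were picked as the highest among all tested genes, all 12 points share libraries and depth, and they are given as a description.

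A wider list of 35 other p53 targets had 34 genes in the table and 26 tested, and 0 of them passed in any comparison. Its median log2 difference from wild type was 0.134 in NrasG12D/+ (14 higher, 12 lower), 0.289 in Tet2+/- (19 higher, 7 lower) and 0.335 in compound cells (17 higher, 9 lower). Of all tested genes, 51.4%, 54.2% and 51.6% were higher in these comparisons. Without the pair of libraries richest in genes at 0 reads (wild-type replicate 1 and NrasG12D/+ replicate 2), the medians of the wider list were -0.06, -0.05 and -0.10, beside 0.00, -0.01 and -0.05 over all tested genes. The counts were then 11 higher and 15 lower in NrasG12D/+, and 12 higher and 14 lower in both Tet2+/- and compound cells. Of the 5 wider targets that stood over 2 log2 units above wild type in NrasG12D/+ cells (Fas, Tnfrsf10b, Plk2, Rps27l and Slc19a2), 4 had 0 reads in a wild-type library. For Tet2+/- the count was 3 of 5 (Fas, Tnfrsf10b, Btg2, Dcxr and Slc19a2) and for the compound mutant 4 of 4 (Fas, Plk2, Dcxr and Slc19a2). In wild-type replicate 1 itself, 3, 2 and 3 of them had 0 reads. The same count over all tested genes was not made, so these shares are not read as a trait of the targets. Over 2 log2 units below wild type were Perp in NrasG12D/+ (-2.39) and Rps27l in compound cells (-3.54). Each had 0 reads in 2 libraries of that mutant. These genes are named for their size of difference after their values were seen.

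For the NrasG12D allele the wider targets with the smallest p were Rap2b, a small GTPase of the Ras family, Ddb2, a sensor of ultraviolet DNA damage, and Ak1, an adenylate kinase. Rap2b averaged 4.92 ± 0.884 RPKM in NrasG12D/+ and 5.86 ± 0.944 in compound cells, against 3.67 ± 1.11 in Tet2+/- and 3.15 ± 1.21 in wild-type cells (SD, n = 3 each), a log2 difference of 0.71 (0.17 to 1.25, limma adjusted p = 0.537). Without wild-type replicate 1 this difference was 0.53. Tet2+/- replicate 2, at 4.9 RPKM, lay above NrasG12D/+ replicates 1 and 2, at 4.79 and 4.11 RPKM. Ddb2 averaged 2.85 ± 0.761 RPKM in NrasG12D/+ and 3.03 ± 1.28 in compound cells, against 4.7 ± 0.419 in Tet2+/- and 3.87 ± 0.853 in wild-type cells, a difference of -0.60 (-1.19 to -0.01), or -0.39 without compound replicate 2. The Ak1 difference was -0.51 (-1.12 to 0.11). None of these 3 passed.

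For the Tet2 allele the wider targets with the smallest p were Rrm2b, the p53-inducible subunit of ribonucleotide reductase, Bid, a BH3-only protein, and Polk, a translesion polymerase. Rrm2b averaged 3.04 ± 0.646 RPKM in Tet2+/- and 2.46 ± 0.815 in compound cells, against 3.55 ± 0.883 in NrasG12D/+ and 4.99 ± 1.67 in wild-type cells, a log2 difference of -0.62 (-1.18 to -0.06). Bid averaged 4.76 ± 1.16 RPKM in Tet2+/- and 6.03 ± 1.67 in compound cells, against 3.07 ± 0.811 in NrasG12D/+ and 3.99 ± 1.71 in wild-type cells, a difference of 0.64 (0.03 to 1.26), or 0.46 without wild-type replicate 1. The Polk difference was 0.43 (-0.01 to 0.88). All 3 had a limma adjusted p of 0.963. Cdkn1a, the p21 inhibitor of cyclin-dependent kinases and a member of the same list, had 0, 86 and 3 reads in NrasG12D/+ libraries, 0, 167 and 7 reads in Tet2+/- libraries, 0 reads in each compound library, and 0, 81 and 44 reads in wild-type libraries, and was not tested.

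Of 25 regulators and partners of p53, 21 were in the table and tested, and 0 passed in any comparison. Their median log2 difference from wild type was -0.06 in NrasG12D/+, 0.09 in Tet2+/- and 0.07 in compound cells, and 0.04, 0.08 and 0.05 without wild-type replicate 1 and NrasG12D/+ replicate 2. For the NrasG12D allele the smallest p belonged to Atm, the kinase that signals double-strand breaks to p53, with 24.6, 25.5 and 21.0 RPKM in NrasG12D/+ and 27.3, 24.0 and 21.2 RPKM in compound libraries, against 23.1, 19.9 and 21.8 RPKM in Tet2+/- and 13.1, 18.7 and 22.4 RPKM in wild-type libraries. The lowest carrier, 21.0 RPKM, lay below the highest non-carrier, 23.1 RPKM. The log2 difference was 0.29 (-0.00374 to 0.58, adjusted p = 0.698), and without wild-type replicate 1 it was 0.18. Trp53bp1, a scaffold at DNA breaks, differed by -0.15 (-0.37 to 0.08). Ppp1r13l, which encodes the p53 inhibitor iASPP, differed by 1.92 (-1.05 to 4.90), and by 0.57 without wild-type replicate 1, in which it had 0 reads.

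For the Tet2 allele the smallest p among the regulators belonged to Trp53bp2, which encodes the ASPP2 cofactor. Trp53bp2 averaged 7.49 ± 0.197 RPKM in Tet2+/- and 8.85 ± 1.28 in compound cells, against 6.12 ± 2.14 in NrasG12D/+ and 6.33 ± 0.573 in wild-type cells (SD, n = 3 each), a log2 difference of 0.42 (0.01 to 0.83), or 0.25 without NrasG12D/+ replicate 2. Rchy1, the ubiquitin ligase Pirh2 that acts on p53, differed by 0.50 (-0.02 to 1.01), or 0.31 without NrasG12D/+ replicate 2, with its highest level in compound cells, 10.2 ± 1.62 RPKM. Rpl5, a ribosomal protein that binds Mdm2 under ribosome stress, differed by -0.14 (-0.33 to 0.05). None of them passed, each with a limma adjusted p of 0.963.

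**Figure D4:**
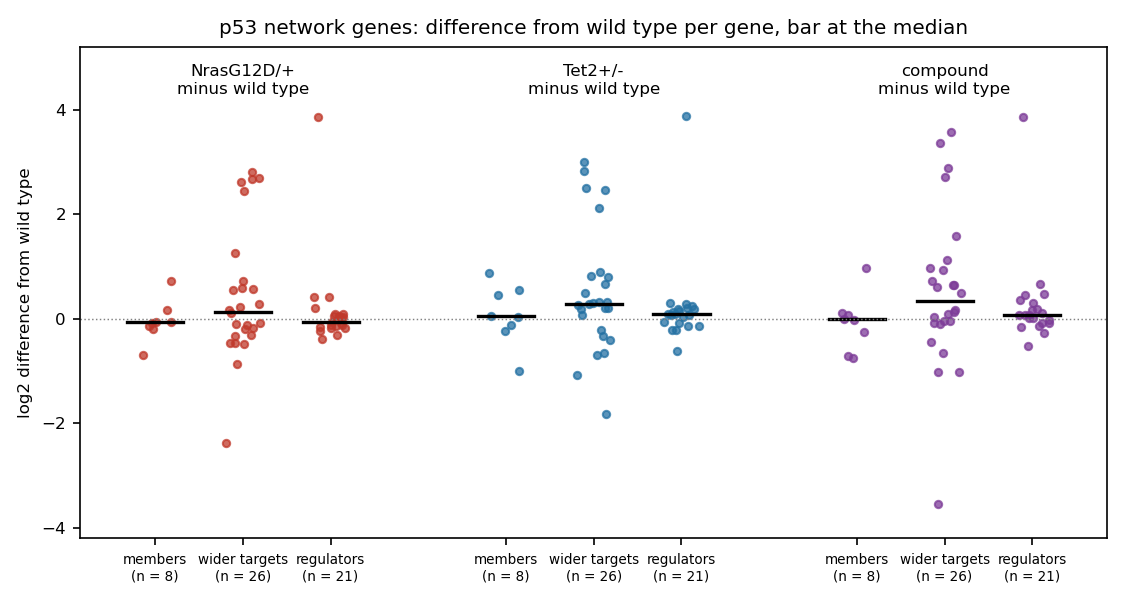
Log2 difference from wild type (y axis) of each tested gene among the members, the wider targets and the regulators, for NrasG12D/+, Tet2+/- and compound cells, with a bar at the median of each set. The members and most regulators lie within 1 log2 unit of 0, while the wider targets hold points above 2, most of them genes with 0 reads in a wild-type library. More than 2 log2 units below wild type are Perp in NrasG12D/+ and Rps27l in compound cells.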

How the data were processed

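The deposited table holds log2 RPKM for genes named by symbol, as made by the authors, and the submitters' processing notes name CASAVA 1.8.2, TopHat2, edgeR and mm10, with no role or order. The values fitted whole reads with a prior of 0.25 reads for 100% of the genes, to a tolerance of 0.001 reads, which gave the depths and the reads at 0.

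Genes that reached 1 RPKM in 3 or more libraries entered a linear model of the deposited log2 values with a mean for each genotype, fitted to all 12 libraries together (limma 3.58.1, R 4.3.3, variance trend). Tests were two-sided, with Benjamini-Hochberg adjustment over 15478 genes and a threshold of 0.05. There were 8 comparisons, which share libraries. Pairs of members were tested with 100000 permutations in Python 3.11.15. The method was tested on simulated data with normal, independent noise and known changes. Those data held no libraries rich in genes at 0 reads, so the run does not give the power reached here.

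The members and lists were chosen with earlier results of these data known. All members are named, and of the 2 wider lists the genes past the threshold and the 3 with the smallest p for each allele. Cdkn1a and the wider targets over 2 log2 units above or below wild type are exceptions to this rule, picked with their values in view. Coordinates are from GENCODE M21 and promoter sequences from RefSeq. Alternatives were no minimum level, log2(RPKM + 0.5), median centring, library weights, a fit of the compared groups alone, a replicate block, voom on recovered reads and leaving out libraries.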

Additional observations from a re-analysis of the deposited data

How the results depend on the processing

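No member passed under any alternative, so the count of members called was 0 throughout. Of 651 alternative values for 34 pairs of gene and comparison, 29 changed sign and 0 gained a call. Apart from leaving out libraries one at a time, the sign changed for Trp53 under the NrasG12D allele (0.0293 with library weights, 0.00821 without wild-type replicate 1 and NrasG12D/+ replicate 2, a setting added after seeing the data) and the Tet2 allele (-0.00931 in that setting). It also changed for Mdm2 under the NrasG12D allele (-0.0629 in that setting), for Sesn1 under the NrasG12D allele (-0.0951 with weights, -0.00238 with voom, -0.175 in that setting) and for Bbc3 under the Tet2 allele (0.0209 with log2(RPKM + 0.5)). All of these estimates are near 0, and the cause was not tested. Leaving out 1 library gave ranges for the NrasG12D allele of -0.0596 to 0.0433 (Trp53), -0.0567 to 0.0789 (Mdm2), -0.449 to 0.0111 (Bax), -0.186 to 0.0291 (Ccng1) and -0.111 to 0.0686 (Sesn1), and for the Tet2 allele of -0.168 to 0.154 (Bbc3) and -0.146 to 0.0344 (Sesn1). The Bbc3 difference of the compound mutant from Tet2+/- cells ranged from -1.93 to -1.28, and its interaction from -2.09 to -1.45.

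The number of all genes called moved. With log2(RPKM + 0.5) it was 3 for NrasG12D/+ and 0 for Tet2+/- and compound cells against wild type and 0 for the interaction, where the deposited scale gave 1, 1, 1 and 2. With only the groups compared it was 0 for each mutant genotype against wild type, 2 for the compound mutant against NrasG12D/+ (from 0) and 4 against Tet2+/- (from 1). With voom it was 0 for each mutant genotype against wild type, 0 for the compound mutant against Tet2+/-, 0 for the interaction and 20 for the NrasG12D allele, which was 5 on the deposited scale, 8 after median centring and 11 with library weights. Without wild-type replicate 1 and NrasG12D/+ replicate 2 it was 3, 2 and 2 against wild type, 1 and 8 for the compound mutant against NrasG12D/+ and Tet2+/-. Leaving out 1 library gave 1 to 18 genes for NrasG12D/+, 1 to 20 for Tet2+/- and 1 to 17 for compound cells against wild type, 0 to 12 and 0 to 6 for the compound mutant against NrasG12D/+ and Tet2+/-, 0 to 6 for the interaction, 2 to 17 for the NrasG12D allele and 0 to 7 for the Tet2 allele. Pairs of members past the threshold numbered 0 without the 2 libraries farthest from the median and 2 on residuals from the genotype means, against 1, and 0 to 2 without 1 library.

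The labels give no shared origin for a replicate number, and deviations of the 18 same-numbered pairs correlated between -0.12 and 0.14 (median 0.03, 2 over 0.1), and those of 36 other pairs between -0.14 and 0.16. The number largely follows sex as read from Xist: the libraries without it were replicate 1 of each genotype and Tet2+/- replicate 3. With the replicate block, 0 genes were called for the compound mutant against Tet2+/- and 0 for the interaction, and no member was called. Phlda3 was at 0 reads in 8 of 12 libraries, deep ones among them, while the shallowest held its most reads, 108. With 3 libraries per genotype the intervals of the allele differences reach past 1 log2 unit for Bax, Aen, Trp53inp1 and Bbc3.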
